A study of Mus musculus with 4 samples.

Results

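The heat shock chaperones are proteins that fold, refold and hold other proteins, together with the transcription factor that controls their stress response. The set was given as a fixed list of 10 genes: Hspa1a, Hspa1b, Hspa8, Hspa5, Hsp90aa1, Hsp90ab1, Hsph1, Dnajb1, Hspb1 and Hsf1. It was chosen with earlier results of these data known. Of these 10 genes, 7 had a probe set of their own among the 19938 genes measured on 4 Affymetrix arrays. Hspa1b was covered only by a probe set that it shares with Hspa1a. Hsp90ab1 and Hsf1 were not named by the platform annotation and were not analysed here.

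The cells were LSK cells sorted from mouse bone marrow, that is the lineage-negative, Sca-1-positive and Kit-positive fraction that holds blood stem cells and early progenitors, of the C57BL/6 background. The Hdac3-null LSK/Flt3- group, with the genotype Vav-Cre/Hdac3Flox/-, had 2 arrays, given below as replicate 1 and then 2, and the wild-type (WT) LSK/Flt3- and LSK/Flt3+ groups, called WT Flt3- and WT Flt3+ below, had 1 array each. Hdac3 is a histone deacetylase, the Vav promoter drives Cre in blood cells from early in development, and Flt3 is a cytokine receptor that appears as LSK cells leave the stem cell state. Each array held cells pooled from 5 to 30 mice. Neither the age of the mice nor whether the null arrays hold separate mice is stated, so the p-values reflect spread between arrays that may be technical only.

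Inducible chaperones are kept low in unstressed cells. When unfolded proteins build up, Hsf1 is released from chaperones, forms trimers and binds heat shock elements, which are inverted repeats of GAA and TTC, in the promoters of genes such as Hspa1a, Dnajb1 and Hsph1. Constitutive chaperones such as Hspa8 and Hsp90ab1 are made all the time, and Hspa5 serves the endoplasmic reticulum under its own stress pathway. Blood stem cells are known for low rates of protein synthesis and for sensitivity to misfolded protein.

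Of 5 members, Hspa1a, Hsph1 and Dnajb1 were lower on the null arrays, and Hspb1 and Hspa5 were not. Hspb1 was dim, below the median gene level on every array. Promoters of these 5 members are printed to show where heat shock elements lie. Each is 300 bases long, from 250 before to 50 after the start site, 5′ to 3′ on the gene's strand, from RefSeq on GRCm38.p6. Capitals mark GAANNTTC or TTCNNGAA, the paired heat shock units, and in Hspa5 the endoplasmic reticulum stress element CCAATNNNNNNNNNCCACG. Their positions are chr17:34972107-34972406 (minus strand) for Hspa1a, chr5:149636287-149636586 (minus strand) for Hsph1, chr8:83607925-83608224 (plus strand) for Dnajb1, chr5:135887669-135887968 (plus strand) for Hspb1 and chr2:34771840-34772139 (plus strand) for Hspa5.
Hspa1a: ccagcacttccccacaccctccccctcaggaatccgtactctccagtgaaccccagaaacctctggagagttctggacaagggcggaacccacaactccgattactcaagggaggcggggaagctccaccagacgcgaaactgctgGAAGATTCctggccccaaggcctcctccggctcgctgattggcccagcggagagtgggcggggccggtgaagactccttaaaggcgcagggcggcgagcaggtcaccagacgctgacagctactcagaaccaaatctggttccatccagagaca
Hsph1: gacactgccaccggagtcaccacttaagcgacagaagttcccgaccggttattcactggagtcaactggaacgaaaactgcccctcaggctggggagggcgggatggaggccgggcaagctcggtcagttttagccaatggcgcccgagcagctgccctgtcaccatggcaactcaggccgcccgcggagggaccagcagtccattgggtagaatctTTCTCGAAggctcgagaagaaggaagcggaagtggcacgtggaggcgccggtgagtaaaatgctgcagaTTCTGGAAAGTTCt
Dnajb1: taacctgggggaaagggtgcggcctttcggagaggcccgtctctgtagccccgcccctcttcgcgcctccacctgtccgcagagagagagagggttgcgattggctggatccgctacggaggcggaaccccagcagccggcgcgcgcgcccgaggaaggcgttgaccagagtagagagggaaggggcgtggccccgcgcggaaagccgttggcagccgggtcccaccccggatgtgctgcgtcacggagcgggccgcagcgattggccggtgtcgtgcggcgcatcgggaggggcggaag
Hspb1: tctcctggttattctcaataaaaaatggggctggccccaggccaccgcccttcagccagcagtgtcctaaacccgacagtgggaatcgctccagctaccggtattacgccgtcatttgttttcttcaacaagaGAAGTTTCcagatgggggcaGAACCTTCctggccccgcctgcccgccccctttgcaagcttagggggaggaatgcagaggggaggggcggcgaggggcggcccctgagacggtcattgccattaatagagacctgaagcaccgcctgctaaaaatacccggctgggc
Hspa5: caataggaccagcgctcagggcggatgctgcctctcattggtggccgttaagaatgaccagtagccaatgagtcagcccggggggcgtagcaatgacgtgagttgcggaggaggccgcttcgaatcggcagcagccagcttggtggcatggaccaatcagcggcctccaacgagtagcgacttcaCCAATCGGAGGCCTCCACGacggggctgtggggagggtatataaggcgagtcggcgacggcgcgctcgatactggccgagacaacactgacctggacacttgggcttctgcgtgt

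Of the 10 members, 6 matched the promoter table by symbol, and all motifs were searched on both strands. Hspa1a held 1 paired unit, whose first base lay at -104 from the start site. The Hspa1b promoter held the same unit and differed from that of Hspa1a at 4 of 300 positions (98.7% identical). Hsph1 held 1 unit at -33 and, after the start site, TTCNNGAA followed directly by NNTTC, the form with 3 alternating units, which contains both paired forms. A window of the same length at another annotated start of Hsph1 held the same matches. Hspb1 held 2 paired units, whose first bases lay at -117 and -97. Neither of 2 windows at annotated starts of Dnajb1 held these letters, which says only that they are not in these windows. Among 32851 promoters in the table, 15.1% held a paired unit, 0.603% held the form with 3 units (GAANNTTC followed by NNGAA, on either strand) and 0.119% held the endoplasmic reticulum stress element found once in Hspa5. CCAAT, which overlaps that element, occurred in 37.4% of promoters, with 4 matches in Hspa5, 2 each in Hsph1 and Dnajb1 and 1 in Hspa1a. These matches are letters in a window, and binding was not measured.

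On the arrays, values are log2 expression levels made by the authors with RMA. A difference is the mean of the null arrays minus a WT array on that scale, and its standard error (SE) and p come from a limma fit over all genes. Precision is limited by having 4 arrays: the median SE of a difference was 0.34, and only the null group has replicates. Hdac3 itself had levels of 5.71 and 5.04 on the null arrays, against 6.18 in WT Flt3- and 6.33 in WT Flt3+ cells. No source says whether its probes fall in the deleted exons, so it cannot serve as a check of the genotypes. The gene-by-gene differences between the null arrays had an SD of 0.43, against 0.31 between the wild-type arrays. Null replicates 1 and 2 differed from the WT Flt3- array with SDs of 0.43 and 0.35, no more than from each other. Genes at least 2-fold apart numbered 563 between the null arrays, and 507 and 298 between these replicates and WT Flt3- cells. Xist was at 10.84 and 9.67 on the null arrays, against 4.23 in WT Flt3- and 3.90 in WT Flt3+ cells, and the Y-linked gene Kdm5d at 8.02 and 7.31, against 8.66 and 8.32 on those arrays. Xist separates the null arrays from the wild-type arrays by a wide gap, and Kdm5d by a narrow one. On the null arrays Kdm5d still lay above the median gene level, so Xist and a Y-linked gene were both read there. The part of the sex of the mice in the differences below was not tested and cannot be told apart from that of genotype. Among the gate markers, Kit lay between 10.11 and 10.77 on all 4 arrays, while Ly6a, which encodes Sca-1, was not named by the annotation. Flt3 stood at 7.84 and 7.02 on the null arrays, against 9.18 in WT Flt3- and 10.07 in WT Flt3+ cells. Slamf1 stood at 8.52 and 8.17 on the null arrays, against 6.16 and 5.08 on those arrays. Flt3 and Slamf1 levels thus differed between the null and WT Flt3- arrays, though neither difference passed limma at an adjusted p under 0.05.

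Hspa1a, the classic stress-induced HSP70 chaperone, fell in null cells relative to WT Flt3+ cells. Its own probe set had log2 levels of 6.47 and 6.70 on the null arrays, against 8.05 in WT Flt3- and 9.30 in WT Flt3+ cells. Both null arrays lay below both wild-type arrays, and the order was null, WT Flt3-, WT Flt3+. The wild-type arrays were themselves 1.25 apart. Against WT Flt3+ cells, here and below, genotype and Flt3 gate differ together and cannot be told apart. The difference was -2.72 ± 0.36 (SE) from WT Flt3+ cells, a 6.57-fold lower level (limma, adjusted p = 0.0124). From WT Flt3- cells it was -1.46 ± 0.36 (SE), 2.75-fold lower in null cells, and it did not pass (limma, unadjusted p = 0.00237, adjusted p = 0.719). The null replicates stood 0.23 apart, less than either difference. Bulk RNA cannot tell fewer cells of a type from less RNA per cell, here and below.

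The probe set shared by Hspa1a and Hspa1b, which encode nearly identical HSP70 proteins from neighbouring genes, showed the same order with smaller steps. It stood at 7.07 and 6.71 on the null arrays, against 7.37 in WT Flt3- and 8.05 in WT Flt3+ cells. The mean differences were -0.48 from WT Flt3- and -1.16 from WT Flt3+ cells. Shared probe sets were kept out of the tests, and Hspa1b has no value of its own. How far the Hspa1a probe set also reads Hspa1b was not tested.

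Hsph1 and Dnajb1, which work with HSP70, were lower on both null arrays than on either wild-type array but did not pass the test. Hsph1, an HSP110 protein that exchanges the nucleotide of HSP70, had log2 levels of 8.75 and 8.92 on the null arrays, against 9.84 in WT Flt3- and 9.68 in WT Flt3+ cells. Its difference was -1.0 ± 0.34 (SE) from WT Flt3- (limma, unadjusted p = 0.0157, adjusted p = 1) and -0.85 ± 0.34 (SE) from WT Flt3+ cells (limma, unadjusted p = 0.0337, adjusted p = 1). The wild-type arrays differed by -0.15 (Flt3+ minus Flt3-), so Hsph1 did not follow the step that Hspa1a showed between them.

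Dnajb1, the HSP40 cochaperone that hands unfolded proteins to HSP70, had levels of 6.64 and 7.13 on the null arrays, against 7.64 in WT Flt3- and 8.01 in WT Flt3+ cells. The differences were -0.76 ± 0.38 (SE) from WT Flt3- (limma, unadjusted p = 0.0737, adjusted p = 1) and -1.12 ± 0.38 (SE) from WT Flt3+ cells (limma, unadjusted p = 0.0141, adjusted p = 0.816). Null replicates stood 0.48 apart, which is close to the smallest gap to wild-type cells, 0.51 for replicate 2 below WT Flt3- cells.

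**Figure D1:**
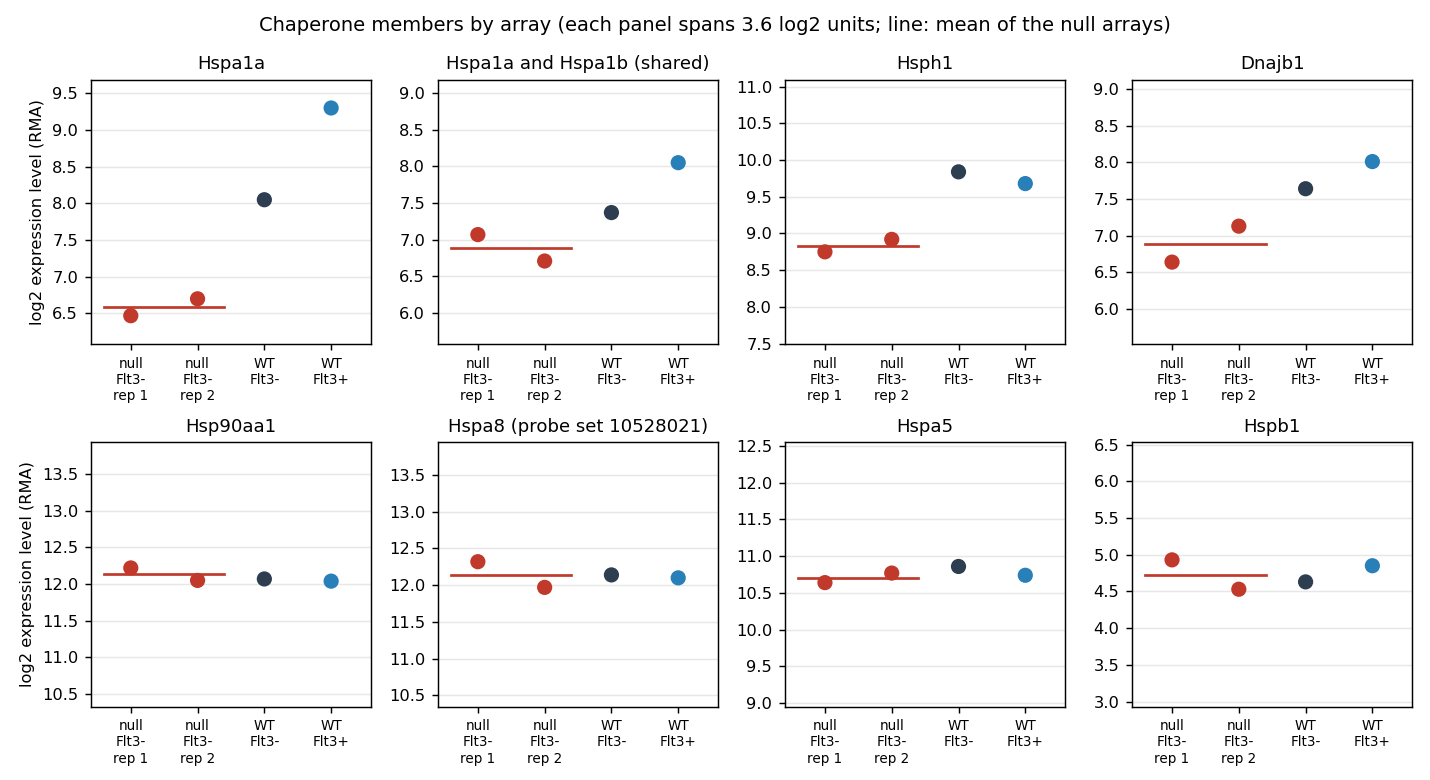
Log2 expression level (RMA, vertical axis) of the measured members on each array, in panels of equal span; red points are the null arrays with their mean as a line, dark points WT Flt3- and blue points WT Flt3+ cells. Both null arrays lie below both wild-type arrays for Hspa1a (6.47 and 6.70 against 8.05 and 9.30), the shared probe set, Hsph1 and Dnajb1, and not for the 4 genes of the lower row.

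The cytosolic HSP90 gene Hsp90aa1, whose product matures kinases and steroid receptors, gave nearly equal values on all 4 arrays. Its brightest probe set had log2 levels of 12.22 and 12.05 on the null arrays, against 12.07 in WT Flt3- and 12.04 in WT Flt3+ cells. The differences were 0.06 ± 0.27 (SE) from WT Flt3- and 0.09 ± 0.27 (SE) from WT Flt3+ cells (limma, adjusted p = 1 for each). The other 2 probe sets of the gene gave differences of 0.09 and -0.03 from WT Flt3- and of 0.10 and 0.08 from WT Flt3+ cells, so all 3 read alike.

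Hspa5, the main HSP70 of the endoplasmic reticulum, also known as BiP, had levels of 10.64 and 10.77 on the null arrays, against 10.86 in WT Flt3- and 10.74 in WT Flt3+ cells. Its differences were -0.16 ± 0.31 (SE) from WT Flt3- and -0.04 ± 0.31 (SE) from WT Flt3+ cells (limma, adjusted p = 1 for each). Hspb1, a small heat shock protein that holds unfolded proteins without ATP, had levels of 4.93 and 4.53 on the null arrays, against 4.63 in WT Flt3- and 4.85 in WT Flt3+ cells. These levels lay below the median gene level of each array, which ran from 5.50 to 5.70, and no detection call comes with the values. Whether Hspb1 could show a fall at this level was not tested. Its differences, 0.10 ± 0.32 (SE) from WT Flt3- and -0.12 ± 0.32 (SE) from WT Flt3+ cells, were within the null replicates' gap of 0.41, and its dimmer probe set gave -0.01 and -0.12.

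**Figure D2:**
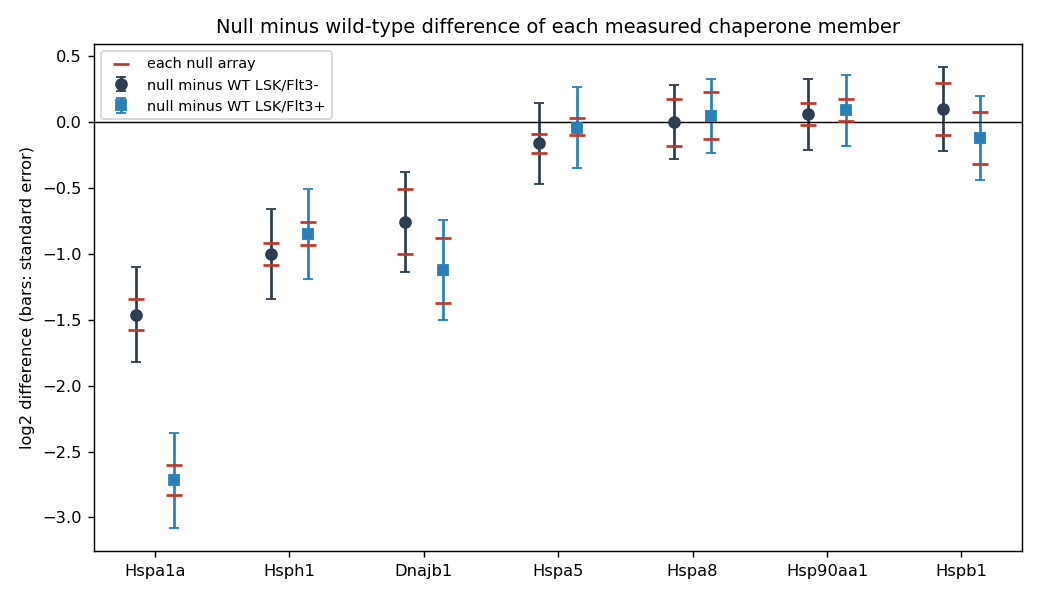
Log2 difference (vertical axis) of the 7 measured members, null minus WT Flt3- (dark circles) and null minus WT Flt3+ (blue squares), with SE bars and each null array as a red dash. Hspa1a lies at -1.46 and -2.72, Hsph1 and Dnajb1 between -0.76 and -1.12, and the other 4 between -0.16 and 0.10.

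Hspa8, the constitutive HSP70 that uncoats clathrin vesicles and folds new proteins, gave results that depended on the probe set. Probe set 10528021, used for the gene because its mean was highest, stood at 12.32 and 11.97 on the null arrays, against 12.14 in WT Flt3- and 12.10 in WT Flt3+ cells. Its differences were 0.00 ± 0.28 (SE) and 0.05 ± 0.28 (SE), null minus WT Flt3- and null minus WT Flt3+ (limma, adjusted p = 1 for each). Probe set 10368025 read alike, with differences of -0.12 and 0.01.

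The remaining Hspa8 probe set, 10584572, stood at 9.56 and 9.64 on the null arrays, against 12.54 in WT Flt3- and 12.24 in WT Flt3+ cells. It was singled out after its values were seen. When the same limma fit was run on all 21789 probe sets that name a single gene, this probe set fell, with a difference of -2.94 ± 0.28 (SE, adjusted p = 0.0165) from WT Flt3- cells, 7.68-fold lower, and of -2.64 ± 0.28 (SE, adjusted p = 0.00778) from WT Flt3+ cells, 6.25-fold lower. In that fit 0.0138% of probe sets were called against WT Flt3- cells, 1 lower and 2 higher, and the lower one was Hspa8. Against WT Flt3+ cells 0.262% were called, 50 lower and 7 higher. The null replicates stood 0.08 apart on this probe set.

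The annotation lists 7 transcript records for probe set 10584572, 14 for 10528021 and 11 for 10368025. It does not say which exons the probes cover, so which of these probe sets best reads Hspa8 is unsettled. Another pair of probe sets names Hspa8 together with Snord14c and Snord14d, small nucleolar RNAs encoded inside the Hspa8 gene in the GRCm38.p6 annotation. Probe set 10584576 of that pair was higher on both null arrays, at 11.07 and 9.70 on the null arrays, against 9.12 in WT Flt3- and 8.90 in WT Flt3+ cells. The other, 10584578, had the same differences (1.27 from WT Flt3- and 1.49 from WT Flt3+ cells, with null replicates 1.37 apart), and the pair read in step on all 4 arrays. Neither was tested, since both name several genes. By its number, 10584572 lies next to this pair, while 10528021 and 10368025 lie far from it. Whether probe set numbers follow position in the genome was not tested. Of 999 genes with more than 1 probe set of their own, Hspa8 had the widest gap between them in the difference from WT Flt3- cells, 2.94 against a median gap of 0.20, and ranked 3 in that from WT Flt3+ cells.

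**Figure D3:**
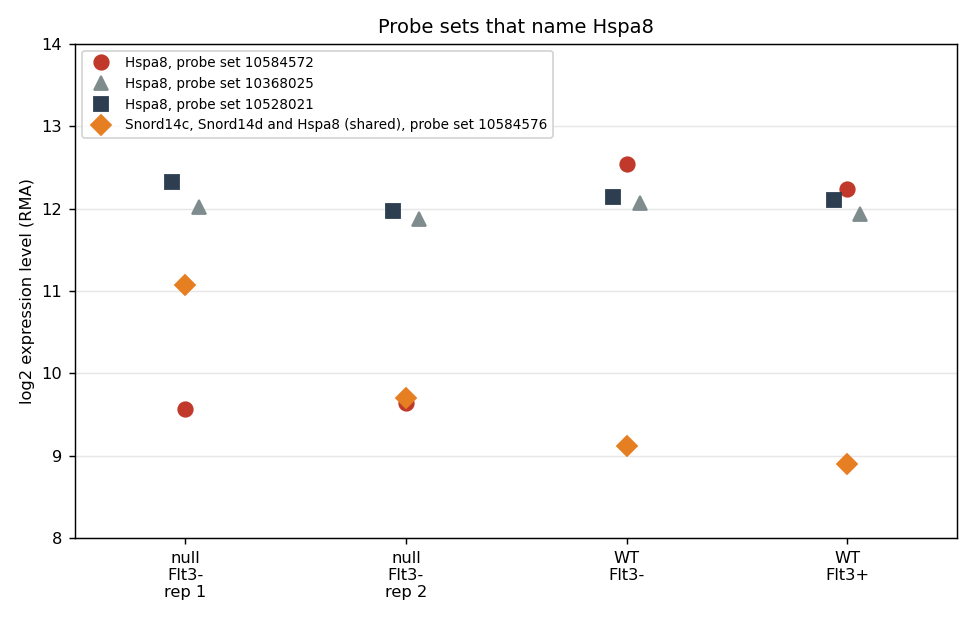
Log2 expression level (RMA, vertical axis) of 4 of the 5 probe sets that name Hspa8 on each array. Probe set 10584572 (red circles) reads 9.56 and 9.64 on the null arrays against 12.54 and 12.24 on the wild-type arrays, the other 2 of Hspa8 alone stay between 11.88 and 12.32, and the one shared with Snord14c and Snord14d (orange) is highest on the null arrays.

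Counted as a set, with 1 probe set per gene, 0 of 7 members passed limma against WT Flt3- cells, where 0.0201% of all genes did, and 2 were lower at an unadjusted p under 0.05, where 1.3% of all genes were lower and 1.1% higher. Against WT Flt3+ cells 1 of 7, Hspa1a, passed, where 0.316% of all genes did, and 3 were lower at an unadjusted p under 0.05, against 2.31% of all genes lower and 1.13% higher. Hspa1a was also the only member lower by 2-fold or more on each null array, in each comparison, where 0.381% of all genes were so against WT Flt3- and 1.08% against WT Flt3+ cells. Both null arrays lay below both wild-type arrays for 3 of 7 members and above them for 0 of 7, while 11.7% of all genes lay below and 23.0% above. Both comparisons use the same null arrays and are therefore not independent. Because the members were chosen with earlier results of these data known, these counts describe the set and do not test it. The members' median difference was -0.16 from WT Flt3- cells, where that of all genes was 0.09, and -0.12 from WT Flt3+ cells, where that of all genes was 0.05. With probe set 10584572 in place of the brightest for Hspa8, the members' medians were -0.76 and -0.85. The counts above also depend on that choice. Probe set 10584572 was more than 2-fold below both wild-type arrays on each null array, and it passed in the fit of every single-gene probe set.

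Between the WT arrays, Flt3+ against Flt3- cells, there is no replicate and no test. Hspa1a was 1.25 higher in Flt3+ cells, the only member at least 2-fold apart, where 0.923% of all genes were at least 2-fold higher. Dnajb1 was 0.37 higher and Hspb1 0.22 higher, while Hsph1, Hspa5, Hspa8 and Hsp90aa1 had differences from -0.15 to -0.03.

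The wider chaperone network was described with 8 further lists that held 114 genes, all measured. In limma over all genes, 0 of the 114 passed in either comparison. Against WT Flt3- cells 1 was lower and 1 higher at an unadjusted p under 0.05, and against WT Flt3+ cells 0 were, while of all genes 1.3% were lower and 1.1% higher against WT Flt3- and 2.31% lower and 1.13% higher against WT Flt3+ cells. Their median difference was -0.03 from WT Flt3- and 0.05 from WT Flt3+ cells, and both null arrays lay below both wild-type arrays for 18 (15.8%, against 11.7% of all genes) and above them for 22 (19.3%, against 23.0% of all genes). These shares are near those of all genes.

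Among the other HSP70 and HSP110 genes the median was 0.06 from WT Flt3- cells and 0.23 from WT Flt3+ cells over 10 genes. Hspa4l, an HSP110 relative of Hsph1, was the 1 gene of the network lower at an unadjusted p under 0.05. It stood at 7.30 and 7.77 on the null arrays, against 8.41 in WT Flt3- and 8.33 in WT Flt3+ cells (limma, unadjusted p = 0.0433, adjusted p = 1 against WT Flt3-). Hspa1l, which neighbours Hspa1a, was at 0.48, Hspa2 at -0.35 and Hspa12b at 0.21 from WT Flt3- cells. These means rest mainly on null replicate 1 (0.92, -0.65 and 0.43, against 0.04, -0.04 and -0.01 on replicate 2). Of 22 other DNAJ genes, which encode HSP40 partners of HSP70, 17 had a negative difference from WT Flt3- and 12 from WT Flt3+ cells, with medians of -0.22 and -0.01. Of all 19938 genes, 6968 had a negative difference from WT Flt3- and 8593 from WT Flt3+ cells. Dnaja1, a cytosolic HSP40, was at -0.64, as was Dnajc21, while Dnajb5 was at 0.45 and Dnajb6 at -0.44 (-0.04 and -0.84 by array) from WT Flt3- cells.

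Cochaperones of HSP70 and HSP90 had medians of -0.20 from WT Flt3- and 0.05 from WT Flt3+ cells over 22 genes. Bag3, a nucleotide exchange factor for HSP70 and a known Hsf1 target, stood at 5.73 and 5.98 on the null arrays, against 6.31 in WT Flt3- and 6.49 in WT Flt3+ cells. Bag4 was at 0.66, the HSP90 cochaperone genes Ahsa2 and Fkbp4 at -0.62 and -0.55 from WT Flt3- cells. The 9 other small heat shock protein genes had medians of 0.12 and -0.08, null minus WT Flt3- and null minus WT Flt3+. Hspb7 was at 0.43, Hspb6 at 0.42, Hspb11 at 0.27 and Cryab at 0.24 from WT Flt3- cells. By array, Hspb11 was at -0.06 and 0.60 and Cryab at -0.06 and 0.54. Of 4 other heat shock factor genes and regulators, Hsf2, a relative of Hsf1, stood at 6.12 and 6.09 on the null arrays, against 6.19 in WT Flt3- and 6.23 in WT Flt3+ cells. Hsf5 was at 0.34, Hsbp1, which binds Hsf1 trimers, at -0.25 and Hsf4 at 0.16 from WT Flt3- cells. The null arrays disagreed in sign for Hsbp1 (-0.68 and 0.18) and Hsf4 (0.53 and -0.21), and Hsf5 was at 0.62 and 0.07.

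The chaperonin and prefoldin genes, whose products fold actin and tubulin, had medians of -0.09 from WT Flt3- and 0.09 from WT Flt3+ cells over 14 genes. The largest mean differences from WT Flt3- cells were those of the prefoldin subunit genes Pfdn5 (-0.41), Pfdn1 (-0.36), Pfdn4 (0.32) and Pfdn6 (-0.31). The 3 negative ones came from null replicate 1 (-1.08, -1.02 and -0.67 for Pfdn5, Pfdn1 and Pfdn6) and had the other sign on replicate 2 (0.26, 0.29 and 0.06). Mitochondrial chaperones and proteases had medians of 0.03 and 0.19, null minus WT Flt3- and null minus WT Flt3+, over 12 genes. Clpx was at -0.33, Grpel2 at 0.32, Clpp at 0.27 and Lonp1 at 0.25 from WT Flt3- cells. By array, Clpp was at 0.02 and 0.53 and Lonp1 at -0.03 and 0.53. Endoplasmic reticulum chaperones and stress sensors had medians of 0.06 and -0.02 over 26 genes. Of these, Atf6, a membrane-bound transcription factor that senses unfolded protein there, was the 1 gene of the network higher at an unadjusted p under 0.05, at 8.34 and 7.96 on the null arrays, against 7.25 in WT Flt3- and 7.70 in WT Flt3+ cells (limma, unadjusted p = 0.0361, adjusted p = 1 against WT Flt3-). The stress sensor gene Ern1 was at 0.80, the protein disulfide isomerase gene P4hb at 0.68 and Ddit3, which encodes the stress factor CHOP, at -0.67 from WT Flt3- cells.

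**Figure D4:**
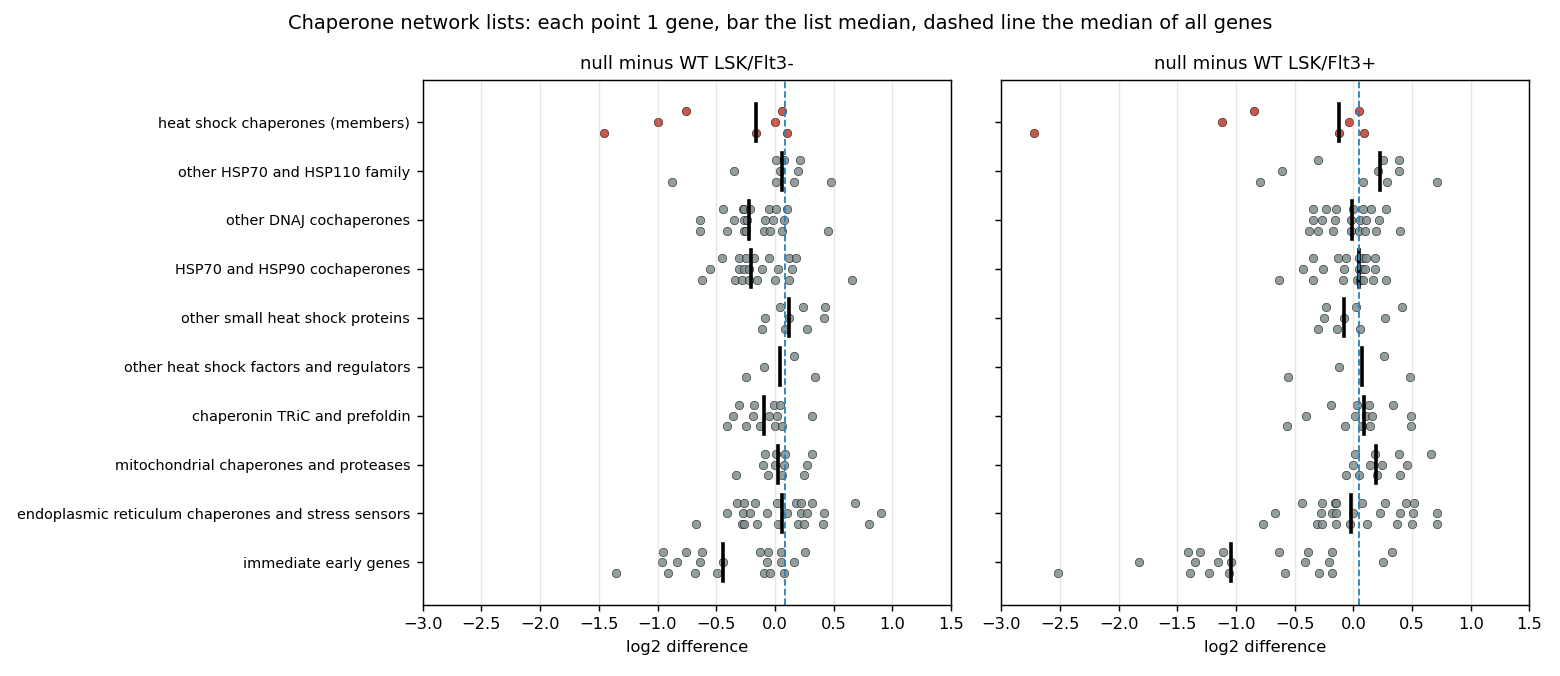
Log2 difference (horizontal axis) of each gene of the members (red) and of the other lists (grey), null minus WT Flt3- (left) and null minus WT Flt3+ (right); black bars are list medians and the dashed line the median of all genes. Of the lists drawn, immediate early genes have the lowest medians, -0.44 and -1.04, while the medians of the 8 other chaperone lists lie between -0.22 and 0.23.

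Immediate early genes, which are switched on within minutes by growth factors, stress or cell handling, were mostly lower on the null arrays. Of 21 genes, 5 were lower and 0 higher at an unadjusted p under 0.05 against WT Flt3- cells, and 11 lower and 0 higher against WT Flt3+ cells, where 1.3% and 2.31% of all genes were lower. Of the 21, 13 had both null arrays below both wild-type arrays (61.9%, against 11.7% of all genes), and the list median was -0.44 from WT Flt3- and -1.04 from WT Flt3+ cells. This list too was chosen with earlier results of these data known, so its counts are a description and not a test. In log2 of the summed level, the list stood at 11.89 and 11.97 on the null arrays, against 12.19 in WT Flt3- and 12.46 in WT Flt3+ cells. The level of Atf3, a stress-induced transcription factor gene, was 6.29 in WT Flt3- cells. Atf3 was the 1 member to pass, against WT Flt3+ cells, where genotype and Flt3 gate differ together. It fell in null cells, at 5.52 and 5.25 on the null arrays, against 7.90 in WT Flt3+ cells (difference -2.52 ± 0.35, SE; limma, adjusted p = 0.0147), and was at -0.91 from WT Flt3- cells. Jun was at -1.35, Klf6 at -0.96, Nr4a1 at -0.95 and Fos at -0.83 from WT Flt3- cells, with adjusted p of 0.937 or more. Their part in the Hspa1a, Hsph1 and Dnajb1 values was not tested.

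Profiles over the 4 arrays, each centred on its own mean, were compared with that of Hspa1a, leaving out genes with predicted or clone-type symbols. The 5 nearest of the remaining genes were Ms4a6b, Tubb2a, Plk2, Il1b and Rnd3, at root mean square distances from 0.13 to 0.23 on the log2 scale. Il1b, which encodes the cytokine interleukin-1 beta, stood at 5.88 and 5.59 on the null arrays, against 7.18 in WT Flt3- and 8.34 in WT Flt3+ cells. Tubb2a, a tubulin gene, stood at 7.23 and 7.88 on the null arrays, against 8.98 in WT Flt3- and 10.13 in WT Flt3+ cells. Ms4a6b stood at 6.59 and 6.95 on the null arrays, against 8.11 in WT Flt3- and 9.18 in WT Flt3+ cells. Plk2, a kinase gene, stood at 4.32 and 4.65 on the null arrays, against 5.75 in WT Flt3- and 6.75 in WT Flt3+ cells, and Rnd3 at 4.36 and 4.26 on the null arrays, against 5.31 in WT Flt3- and 6.77 in WT Flt3+ cells. All 5 were chosen for this order, which is therefore a description. Among the members, Dnajb1 (0.66) and Hsph1 (0.77) were nearest to Hspa1a and the other 4 lay between 1.11 and 1.18.

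Macrophage markers, like Hspa1a, were highest in WT Flt3+ cells by their summed level. All 10 were measured, and their log2 summed level was 9.04 and 9.17 on the null arrays, against 8.65 in WT Flt3- and 10.78 in WT Flt3+ cells. Relative to WT Flt3+ cells 4 of 10 fell on the null arrays (Adgre1, Csf1r, Mrc1 and C1qc), with Mrc1, a mannose receptor gene, at 4.46 and 4.53 on the null arrays, against 8.62 in WT Flt3+ cells, and C1qc, a complement gene, at 3.59 and 4.05 on the null arrays, against 8.18 in WT Flt3+ cells (limma, adjusted p = 0.000515 for each). Of all genes, 0.316% passed in that comparison. Against WT Flt3- cells 0 of 10 passed, where 0.0201% of all genes did, and members went both ways. C1qc, at 4.89 in WT Flt3- cells, was 1.07 lower on the null arrays (limma, unadjusted p = 0.00968, adjusted p = 1) and kept the order of Hspa1a over the groups. Cd68, a lysosomal protein gene of macrophages, stood at 8.02 and 8.38 on the null arrays, against 6.95 in WT Flt3- and 8.54 in WT Flt3+ cells. Without Cd68, left out after its values were seen, the summed level was 8.05 and 7.94 on the null arrays, against 8.12 in WT Flt3- and 10.43 in WT Flt3+ cells. The part of macrophage RNA in the Hspa1a differences was not tested.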

How the data were processed

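Biotin-labelled RNA of 4 samples was hybridised to Affymetrix arrays, per the labels' protocols. The authors deposited 1 log2 value for each probe set and array, computed by RMA (affy 1.23, per the submitters' processing notes). Array medians differed (5.30 to 5.60), so their scaling between arrays is unsettled, and no genome build is given in the sources used here. Of 35556 probe sets, 21789 named 1 gene, 1621 several and 12146 were unnamed. Each gene was represented by its single-gene probe set with the highest mean. The 3 groups were fitted together in limma 3.58.1 under R 4.3.3, with a prior that follows the mean, two-sided tests and Benjamini-Hochberg adjustment over 19938 genes at 0.05. With 1 residual and 9.01 prior degrees of freedom, the spread comes from the null pair and is taken to hold for the single WT arrays. The fit was tested on simulated data with known changes. The 18 lists, members included, were chosen with earlier results of these data known. Named were all members, members of other lists past the test, and up to 4 of each chaperone list and the immediate early list with the largest difference from WT Flt3- cells, and 2 of each marker list. The alternatives were quantile and cyclic loess normalization, subtracted array medians, the mean of all probe sets, a minimum mean level of 6, other priors, leaving out a null replicate and, added later, a fit of every probe set. Promoters are RefSeq sequences on GRCm38.p6.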

Additional observations from a re-analysis of the deposited data

How the results depend on the processing

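Hspa1a kept its call against WT Flt3+ cells in all 7 alternatives with a test (adjusted p 0.000553 to 0.0319) and over every probe set (0.026), and its difference from WT Flt3- cells lay between -1.58 and -1.34 in 9 alternatives and passed in none of the 7 with a test. Hsph1 and Dnajb1 stayed below 0 in all 9 alternatives of each comparison. The sign of Hspa8, 0.00 from WT Flt3- cells, turned to -0.02 after quantile normalization, -0.11 with array medians subtracted, -1.02 with the mean of all probe sets and -2.94 with the dimmest probe set; from WT Flt3+ cells it turned to -0.86 and -2.64 with the last 2. Without null replicate 1, Hspa8 was at -0.18 from WT Flt3- and -0.13 from WT Flt3+ cells, Hsp90aa1 at -0.02 and Hspb1 at -0.10 from WT Flt3- cells, and Hspa5 at 0.03 from WT Flt3+ cells, each of the other sign than with both null arrays; without null replicate 2, Hspb1 was at 0.08 from WT Flt3+ cells. Hsp90aa1 turned to -0.05 with array medians subtracted, and Hspb1 to -0.04, -0.06 and -0.02 after quantile normalization, cyclic loess and subtracted medians, all from WT Flt3- cells. The members' median, -0.16 from WT Flt3- cells, was -0.21 after quantile normalization, -0.28 with medians subtracted, -0.76 with the mean of all probe sets or the dimmest Hspa8 probe set, -0.46 with a minimum mean level of 6 and -0.23 to -0.18 leaving out a null replicate. From WT Flt3+ cells (-0.12) it was -0.85 with the mean of all probe sets or the dimmest Hspa8 probe set, -0.44 with the minimum level and -0.32 to -0.10 leaving out a null replicate. Subtracting array medians moved the median of all genes from 0.09 to -0.02, relative to which Hspa1a, Hsph1 and Dnajb1 stayed lower.

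Against WT Flt3- cells limma called 0 genes lower and 4 higher. It called 1 lower after cyclic loess, 13 lower and 12 higher with a robust prior, 2 higher after quantile normalization and with medians subtracted, and 1 lower and 2 higher over every probe set. Against WT Flt3+ cells it called 56 lower and 7 higher, and 104 lower after cyclic loess, 89 with medians subtracted, 17 with a minimum mean level of 6, and 99 lower and 15 higher with a robust prior. Genes lower by 2-fold or more on each null array numbered 76 and 215 in the 2 comparisons, 50 and 114 with a minimum mean level of 6, and 165 to 240 and 331 to 459 leaving out a null replicate, while higher ones, 50 and 52, became 133 to 267 and 113 to 342. Fewer genes were tested with the minimum level (8418), and otherwise the cause of these changes was not tested. The deposited values carry no signal over background, so what dim probe sets limit is unknown. No paired analysis was possible because the wild-type arrays carry no replicate number.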

Other observations

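Probe sets of 1 gene mostly read alike: of 999 genes with more than 1, 38 had differences from WT Flt3- cells that spanned at least 1 on the log2 scale and 2 spanned at least 2. These 2 were Hspa8, with 3 probe sets, and Chd7, a chromatin remodeler gene whose 30 probe sets ran from -1.06 to 1.60.

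Marker lists of other cells, given as log2 of the summed level, were as follows. Counts of higher and lower markers are against WT Flt3- cells, where 12969 of all 19938 genes were higher and 6968 lower. These counts are a description and not a test. Granulocyte and monocyte markers stood at 12.92 and 13.20 on the null arrays, against 11.98 in WT Flt3- and 12.01 in WT Flt3+ cells, with Ms4a3 at 3.11 and Ccr2 at 3.0 from WT Flt3- cells; 7 of 9 were higher there, while S100a8 (-1.36) and S100a9 (-1.05) were lower. Mast cell and basophil markers stood at 9.43 and 10.37 on the null arrays, against 9.22 in WT Flt3- and 10.08 in WT Flt3+ cells, with Fcer1a at 2.66 and Gzmb at 1.53 from WT Flt3- cells, where 6 of 8 were higher and Cpa3 (-0.73) and Tpsb2 (-0.24) lower. Erythroid markers stood at 11.40 and 12.36 on the null arrays, against 12.48 in WT Flt3- and 12.05 in WT Flt3+ cells, with Rhag at -2.80 and -1.54 and Car1 at -5.37 and -0.88 from WT Flt3- cells on null replicates 1 and 2, so that the Car1 mean of -3.13 rests on replicate 1. Of 7 markers 4 were lower and 3 higher, Car2 by 0.92. Megakaryocyte and platelet markers were at 9.50 and 11.08 on the null arrays, against 9.80 in WT Flt3- and 9.96 in WT Flt3+ cells, with Ppbp at 0.52 and 2.83 and Vwf at 0.71 and 1.89 from WT Flt3- cells on null replicates 1 and 2. Pf4 was at -1.41 and 1.32 there and Itga2b at -0.23 in the mean, and 4 of 6 were higher. B-lineage markers were at 8.46 and 8.57 on the null arrays, against 9.17 in WT Flt3- and 9.27 in WT Flt3+ cells, with Vpreb1 at -1.34 and Cd79b at -0.54 (-0.89 and -0.18 by array) from WT Flt3- cells, where 6 of 7 were lower. T and NK cell markers were at 9.11 and 10.25 on the null arrays, against 8.75 in WT Flt3- and 9.23 in WT Flt3+ cells, with Nkg7 at 0.37 and 1.85 by array and Cd8a at 0.51 from WT Flt3- cells, where 6 of 7 were higher. The LSK and gate markers were at 12.59 and 12.41 on the null arrays, against 12.35 in WT Flt3- and 12.50 in WT Flt3+ cells. Slamf1 was at 2.18 and Flt3 at -1.75 from WT Flt3- cells, where 5 of 8 were higher.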
